A study of Mus musculus with 6 samples.

Results

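Caveolae are flask-shaped pits of the plasma membrane, and the 10 genes described here encode their coat, the proteins at their neck and the diaphragm of endothelial vesicles. They were picked by symbol: the caveolins Cav1 and Cav2, the cavins Cavin1, Cavin2 and Cavin3, the ATPases Ehd1, Ehd2 and Ehd4, the membrane-bending protein gene Pacsin2, and Plvap. All 10 were found among the 15917 genes of the deposited table, and all 10 passed the filter of a mean of at least 1 FPKM (fragments scaled to transcript length and to the mapped fragments of the library) that left 10400 genes to test. The samples were bEnd.3 cells, a mouse brain endothelial line transformed by polyoma middle T antigen. One group carried a short hairpin RNA against Npc1 (shNpc1, replicates 4, 5 and 6), and the other a control hairpin (shControl, replicates 1, 2 and 3). A tag of the labels calls the shControl samples WT, although their titles name a hairpin. Polyadenylated RNA was sequenced once for each of the 6 samples. Separate cultures are not stated for the replicates, nor whether all shNpc1 samples carried 1 hairpin sequence; the p-values therefore rest on the variation among these 6 samples alone, and that variation may be technical.

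Caveolin-1 inserts into the inner leaflet of the membrane, binds cholesterol and assembles into the caveolar coat together with caveolin-2. Cavin proteins are recruited from the cytosol and stabilise the coat, and ATPases of the EHD family and pacsin-2 hold the neck. In peripheral endothelium, caveolae and related vesicles carry albumin and other cargo across the cell, whereas healthy brain endothelium holds few of them. The product of Npc1 exports cholesterol from late endosomes and lysosomes, and the comparison asks which of these transcripts differ when Npc1 is reduced.

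Npc1 itself was measured at 0.45, 1.20 and 0.97 FPKM in the shNpc1 libraries, against 6.31, 6.63 and 7.27 FPKM in the shControl libraries. The shNpc1 libraries held 13.0% ± 5.70 (SD, n = 3) of the shControl mean (exact two-sided permutation p = 0.1, the smallest that 3 against 3 samples allow). Of the 13 endothelial markers examined, 10 were tested. Of these, 2 rose (Eng, ratio 1.26, limma adjusted p = 0.0250, and Slc2a1, ratio 1.20, adjusted p = 0.0424) and 0 fell, beside 12.0% and 5.89% of all tested genes. At an unadjusted p under 0.05, 4 were higher and 1 lower, beside 21.9% and 12.8%. By the authors' deposited q-values 1 was higher and 1 lower, beside 992 and 798 of the 10400 tested genes. Over the 17 alternatives adjusted p ran from 0.00444 to 0.108 for Eng and from 0.0130 to 0.168 for Slc2a1, with the call lost in 5 and 10 of them, each shControl replicate left out among these. Pecam1, Cdh5 and Emcn were at 145.67 FPKM or more in all 6 libraries. Vwf and Ocln were at or below 0.37 FPKM, and Cldn5, the main claudin of brain endothelium, was listed at 0 in 5 libraries and at 0.05 in shNpc1 replicate 6. The summed endothelial marker level was 1489 to 1542 FPKM in shNpc1 and 1512 to 1559 FPKM in shControl. Not every listed marker of other cells was found among the deposited genes. Those found were 5 of 6 for fibroblasts, 1 of 5 for striated muscle and 3 of 4 for macrophages. They were 4 of 4 for epithelium, 2 of 3 for astrocytes and 1 of 3 for neurons. For adipocytes and mural cells they were 3 of 4 and 7 of 9. Summed markers of fibroblasts, striated muscle, macrophages, epithelium, astrocytes and neurons each stayed at or below 1.39 FPKM in every library. Those of adipocytes summed to 4.07 to 5.54 FPKM in shNpc1 and 2.79 to 3.29 FPKM in shControl, nearly all of it Fabp4 (ratio 1.58, adjusted p = 0.0248, range 0.00635 to 0.108), with Adipoq and Plin1 at or below 0.06 FPKM. Those of mural cells summed to 7.05 to 12.5 FPKM in shNpc1 and 2.29 to 2.48 FPKM in shControl, of which Acta2 made up 11.2, 5.91 and 8.03 FPKM in shNpc1 replicates 4, 5 and 6 and 1.68, 1.27 and 1.37 FPKM in shControl replicates 1, 2 and 3; its part in the results below was not tested. Of the other mural markers, Pdgfrb was at 0.74, 0.92 and 0.68 FPKM in shNpc1 and 0.52, 0.65 and 0.66 FPKM in shControl, Des at or below 0.36 FPKM, Tagln at or below 0.14 FPKM, and Myh11, Cspg4 and Kcnj8 at or below 0.05 FPKM in every library. In these bulk samples, fewer cells with a transcript and less of it in each cell cannot be told apart.

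The deposited columns summed to 661950 to 757026 FPKM, and read counts were not used, so the absolute depth is unknown. The library of shNpc1 replicate 4 stood apart from the other 5 in how its values ran with the GC content of the transcripts. Over the 25% of tested genes with the lowest GC content, the median log2 deviation from the shControl mean was -0.49 in shNpc1 replicate 4, against 0.01 and -0.12 in shNpc1 replicates 5 and 6. Over the 25% with the highest GC content these medians were 0.31, 0.07 and 0.11. The 10 genes span GC contents of 37.5% (Cav2) to 60.6% (Plvap). The result of each gene is therefore also given without that library or after a correction for GC content where this matters.

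Of the 10 genes, 3 fell in shNpc1 cells and 0 rose. Cav1, Cav2 and Ehd4 fell to between 0.530 and 0.654 of the shControl mean, while the cavins, Ehd1, Ehd2, Pacsin2 and Plvap did not pass the test. The test was limma on log2(FPKM + 1) with Benjamini-Hochberg adjustment over all 10400 genes and a threshold of 0.05. It called 5.89% of all tested genes lower and 12.0% higher, 17.9% in either direction. At an unadjusted p under 0.05, 4 of the 10 were lower and 1 was higher, beside 12.8% of all tested genes lower and 21.9% higher. In the authors' deposited table, at q under 0.05, 3 were lower and 0 higher, beside 5.60% of all its 15917 genes lower and 6.48% higher. Among the 10400 tested genes, 798 were lower and 992 higher by these q-values, and the counts of other lists by q stand beside these. The median log2 fold change was -0.15 over the 10 genes and 0.03 over all genes tested. The groups did not overlap for 6 of the 10, of which 5 were lower in shNpc1 and 1 higher; such separation was seen downward in 16.1% and upward in 27.4% of all tested genes.

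**Figure D1:**
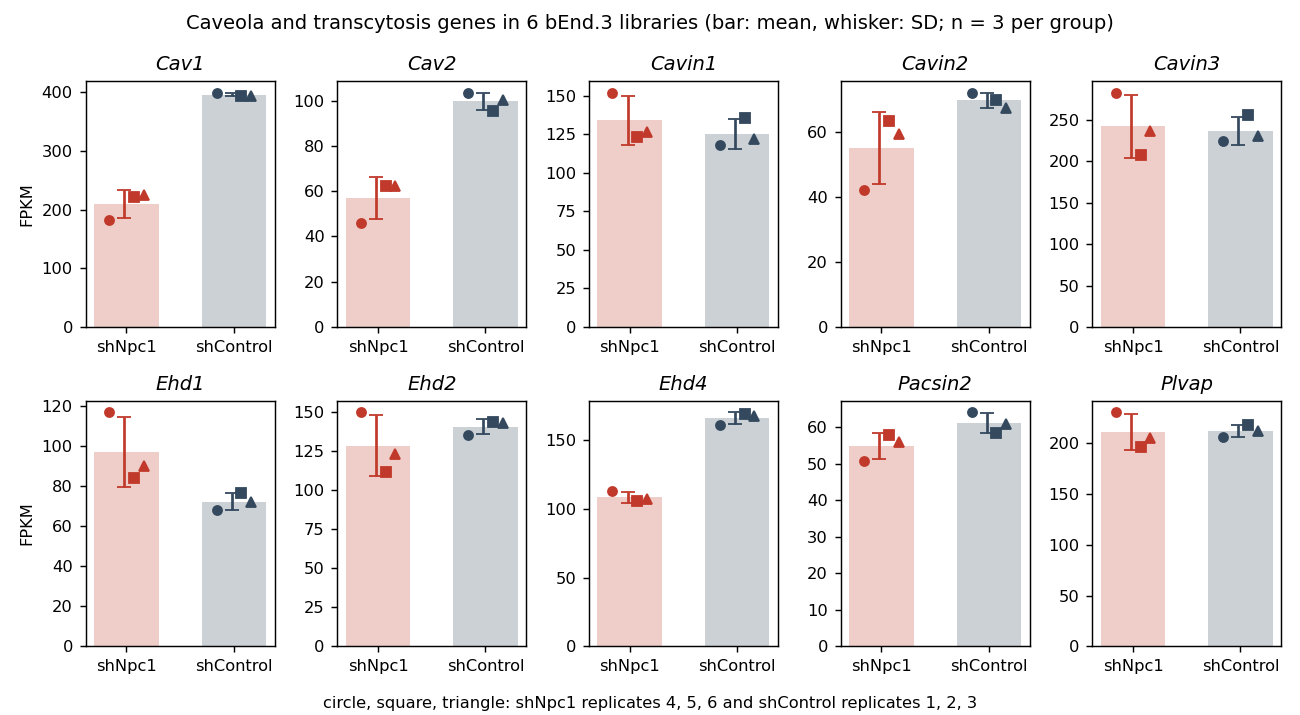
FPKM of the 10 genes in each library. Each panel is 1 gene, with the shNpc1 libraries in red and the shControl libraries in dark blue; bars are means, whiskers SD (n = 3 per group) and symbols single libraries. Cav1, Cav2 and Ehd4 show wide gaps between the groups, while Cavin1, Cavin3, Ehd2 and Plvap overlap.

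Both caveolins fell. Cav1 (gene 12389), the caveolin that endothelial caveolae cannot form without, was at 181, 222 and 225 FPKM in the shNpc1 libraries and at 399, 394 and 394 FPKM in the shControl libraries. All shNpc1 values were below all shControl values, and the shControl values were within a few FPKM of each other. The means were 209.6 ± 24.5 FPKM in shNpc1 and 395.5 ± 2.91 FPKM in shControl (SD, n = 3 each), a ratio of 0.530 (log2 fold change -0.92, SE 0.09, limma adjusted p = 0.00204). By mean level, Cav1 ranked 499th in shNpc1 and 254th in shControl among the tested genes. Without shNpc1 replicate 4 its log2 fold change was -0.82 (adjusted p = 3.18e-05), and over the 17 alternatives tried it ran from -0.98 to -0.74, with adjusted p from 3.18e-05 to 0.0203.

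Cav2 (gene 12390), the partner that joins Cav1 in mixed oligomers and needs it to leave the Golgi, was at 46.1, 62.3 and 62.25 FPKM in shNpc1 and at 103, 95.6 and 100.2 FPKM in shControl. The groups were again separate, with shNpc1 replicate 4 the lowest of all. Means of 56.9 ± 9.36 and 99.6 ± 3.80 FPKM (SD, n = 3 each) in shNpc1 and shControl gave a ratio of 0.571 (log2 fold change -0.81, SE 0.12, limma adjusted p = 0.00726). Cav2 has the lowest GC content of the 10 genes, and its log2 fold change was -0.67 without shNpc1 replicate 4 (adjusted p = 0.000135) and -0.47 after the GC correction (adjusted p = 0.00187), the range of adjusted p over the 17 alternatives being 0.000135 to 0.0464. The ratio of Cav2 to Cav1 within a library was 0.270 ± 0.0143 in shNpc1 and 0.252 ± 0.00826 in shControl (SD, n = 3 each), with overlapping values (exact permutation p = 0.2, and 0.2 after adjustment over the 8 ratios examined). The caveolins together summed to 227, 284 and 287.5 FPKM in shNpc1 and to 502, 489.5 and 494 FPKM in shControl.

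Cav1 and Cav2 are neighbours on mouse chromosome 6, transcribed from the same strand. The promoters of the 3 genes that fell are shown so that they can be set beside that of Cavin1, whose level did not pass. Each window is the 250 bases before a RefSeq transcription start in GRCm38.p6; the build behind the deposited values is not given in the sources used here. Promoters were available for 7 of the 10 genes, with 11 windows in all. Capitals mark matches on either strand to the GC box GGGCGG (or its complement CCGCCC), found in 32.7% of the 32851 windows of all genes, and to the TATA box TATAAA (or TTTATA), found in 12.4%.
Cav1, upstream start, chr6:17306085-17306334, plus strand: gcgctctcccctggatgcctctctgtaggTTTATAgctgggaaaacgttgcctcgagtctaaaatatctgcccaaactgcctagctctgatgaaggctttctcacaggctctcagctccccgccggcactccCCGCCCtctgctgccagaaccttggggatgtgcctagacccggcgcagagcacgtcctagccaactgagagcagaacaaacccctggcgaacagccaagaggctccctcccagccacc
Cav1, downstream start, chr6:17307390-17307639, plus strand: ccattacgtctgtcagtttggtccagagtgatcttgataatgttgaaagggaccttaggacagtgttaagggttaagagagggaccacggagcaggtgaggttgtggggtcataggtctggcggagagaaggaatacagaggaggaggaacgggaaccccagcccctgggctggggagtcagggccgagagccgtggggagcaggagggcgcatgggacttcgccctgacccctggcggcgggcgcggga
Cav2, chr6:17280935-17281184, plus strand: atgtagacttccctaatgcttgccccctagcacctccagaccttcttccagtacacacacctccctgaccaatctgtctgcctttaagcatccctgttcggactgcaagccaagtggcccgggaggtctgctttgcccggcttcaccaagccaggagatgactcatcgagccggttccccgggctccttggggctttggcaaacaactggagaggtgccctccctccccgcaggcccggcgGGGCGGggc
Ehd4, chr2:120154576-120154825, minus strand: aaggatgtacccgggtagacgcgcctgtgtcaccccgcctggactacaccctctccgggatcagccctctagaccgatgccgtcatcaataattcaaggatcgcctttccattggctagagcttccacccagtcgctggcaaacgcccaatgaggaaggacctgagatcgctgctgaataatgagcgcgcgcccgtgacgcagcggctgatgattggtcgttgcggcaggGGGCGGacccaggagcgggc
Cavin1, chr11:100970618-100970867, minus strand: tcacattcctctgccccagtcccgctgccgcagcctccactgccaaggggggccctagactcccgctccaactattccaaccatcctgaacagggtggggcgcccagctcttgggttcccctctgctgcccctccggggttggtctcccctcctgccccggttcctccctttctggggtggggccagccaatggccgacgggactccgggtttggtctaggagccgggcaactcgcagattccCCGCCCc
One GC box was found in the upstream Cav1 window, in the Cav2 window, in the Ehd4 window and in the Cavin1 window, and a TATA box on the reverse strand in the upstream Cav1 window alone of these. The sterol regulatory element TCACNCCAC was in none of the 11 windows (1.05% of all windows hold it) and the E box CACGTG was in none either (6.02% of all windows). These windows say only that the letters are present or absent there.

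The cavin transcripts did not pass. Cavin1 (gene 19285), the cavin on which caveola formation depends, was at 152, 124 and 127 FPKM in shNpc1 and at 118, 136 and 122 FPKM in shControl. The groups overlapped, with means of 134 ± 15.7 FPKM in shNpc1 and 125 ± 9.48 FPKM in shControl (SD, n = 3 each). Its log2 fold change was 0.09 (SE 0.10, 95% interval -0.14 to 0.33, limma adjusted p = 0.521). Without shNpc1 replicate 4 it was 0.00034 (adjusted p = 0.997), and after the GC correction it was -0.06, with the opposite sign (adjusted p = 0.464). The range of adjusted p over the 17 alternatives was 0.297 to 0.997.

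Cavin3 (gene 109042), named earlier for binding protein kinase C delta, was the second most abundant of the 10 genes in shControl. Its values were 283, 207 and 236 FPKM in shNpc1 and 224, 256 and 230.2 FPKM in shControl, so shNpc1 held both the highest and the lowest value. The log2 fold change was 0.02 (95% interval -0.26 to 0.30, limma adjusted p = 0.906). It took a negative sign under median centring, trimmed mean of M values, quantiles and the GC correction, and without shControl replicate 1 or shNpc1 replicate 4. Cavin2 (gene 20324), which helps shape caveolar membrane, was at 42.4, 63.4 and 59.6 FPKM in shNpc1 and at 72.1, 70.01 and 67.4 FPKM in shControl. Every shNpc1 value was below every shControl value, with shNpc1 replicate 4 far below the other libraries. Its log2 fold change was -0.36 (95% interval -0.70 to -0.01) with a limma adjusted p of 0.134. It passed without shNpc1 replicate 4 (log2 -0.18, adjusted p = 0.0360) and after the GC correction (log2 -0.24, adjusted p = 0.0345), within a range of 0.0345 to 0.323 over the 17 alternatives.

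Ratios between the genes were compared within libraries, and none of the 8 passed a test, since 3 against 3 samples cannot reach a p below 0.1. Within a library the ratio of Cavin1 to Cav1 FPKM was 0.839, 0.557 and 0.562 in shNpc1 and 0.296, 0.345 and 0.310 in shControl. The shNpc1 ratios were all above the shControl ratios, with a log2 difference of 1.01 (exact two-sided permutation p = 0.1, the smallest possible here, and 0.114 adjusted over 8 ratios). Without shNpc1 replicate 4 the log2 difference was 0.82. Plvap to Cav1 and Ehd2 to Cav1 were likewise higher in every shNpc1 library, with log2 differences of 0.91 and 0.78, and Pacsin2 to Cav1 by 0.76. All ratios to Cav1 carry its own fall (log2 fold change -0.92), so they are not separate results. In shNpc1 replicates 4, 5 and 6, Plvap to Cav1 was 1.27, 0.885 and 0.909, against a shControl mean of 0.535. Ehd2 to Cav1 was 0.827, 0.503 and 0.548, against a shControl mean of 0.356. Both were highest in shNpc1 replicate 4. The GC content is 42.6% for Cav1, 60.6% for Plvap and 54.5% for Ehd2, and the ratios were not recomputed after the GC correction. Cavin2 to Cavin1 averaged 0.421 ± 0.125 in shNpc1 and 0.560 ± 0.0486 in shControl (SD, n = 3 each), a log2 difference of -0.45 that was -0.18 without shNpc1 replicate 4. Cavin3 to Cavin1 averaged 1.80 ± 0.107 in shNpc1 and 1.89 ± 0.0105 in shControl, and Cavin3 was above Cavin1 in all 6 libraries.

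**Figure D2:**
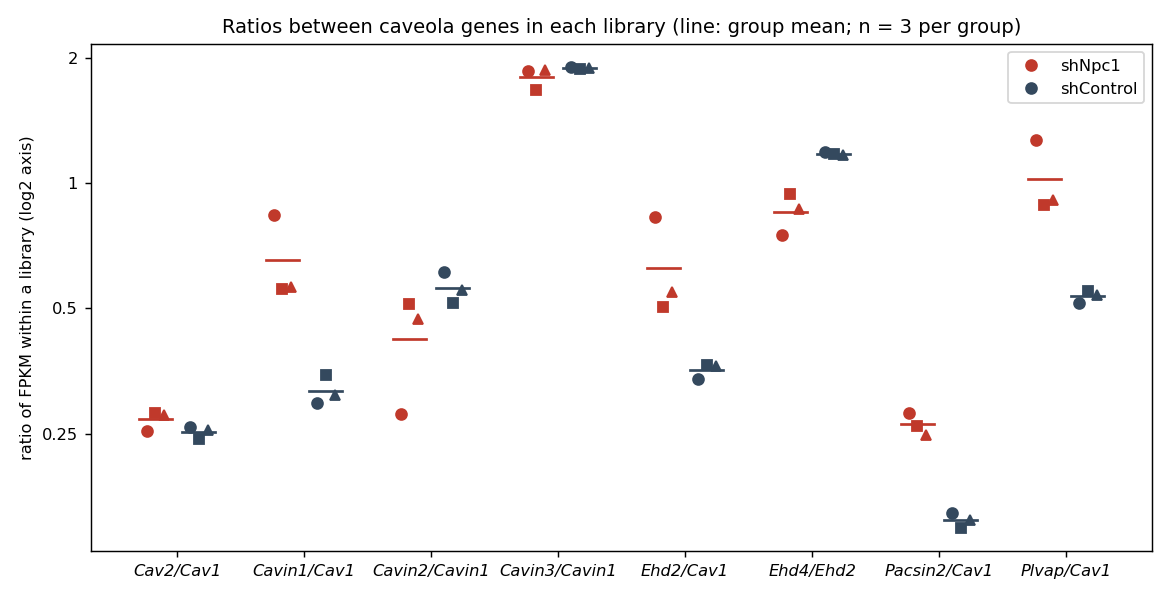
Ratios of FPKM between pairs of the genes within each library, on a log2 axis. Symbols are single libraries (shNpc1 red, shControl dark blue) and lines group means, n = 3 per group. The ratios of Cavin1, Ehd2, Pacsin2 and Plvap to Cav1 are higher in every shNpc1 library, while Cav2 to Cav1 overlaps between the groups.

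Of the EHD ATPases, Ehd4 fell, and Ehd1 and Ehd2 did not pass with all 6 libraries. Ehd4 (gene 98878), which acts on early endosomes and can also join Ehd2 at the caveolar neck, was at 113, 105 and 107 FPKM in shNpc1 and at 161, 169 and 168 FPKM in shControl. The groups were far apart and each was tight. Means of 108 ± 3.81 FPKM in shNpc1 and 166 ± 4.43 FPKM in shControl (SD, n = 3 each) gave a ratio of 0.654 (log2 fold change -0.61, SE 0.06, limma adjusted p = 0.00162). Of the 3 genes that fell, Ehd4 was the one that shNpc1 replicate 4 did not lead: its log2 fold change was -0.64 without that library and -0.70 after the GC correction, with adjusted p from 6.35e-05 to 0.0207 over the 17 alternatives.

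Ehd1 (gene 13660), which drives recycling from endosomes to the surface, was at 117, 84.1 and 90.1 FPKM in shNpc1 and at 67.95, 76.6 and 72.2 FPKM in shControl. All shNpc1 values were above all shControl values, with replicate 4 the highest. The ratio was 1.34 and the log2 fold change 0.41 (95% interval 0.11 to 0.70), with a limma adjusted p of 0.0654. It passed as higher without shNpc1 replicate 4 (log2 0.27, adjusted p = 0.0160), without shNpc1 replicate 5 (log2 0.50, adjusted p = 0.0297), with TPM (log2 0.40, adjusted p = 0.0241) and after the GC correction (log2 0.24, adjusted p = 0.0414), and adjusted p ran from 0.0160 to 0.214 over the 17 alternatives.

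Ehd2 (gene 259300), the ATPase that anchors caveolae at the membrane, was at 149.95, 112 and 123 FPKM in shNpc1 and at 135, 144 and 143 FPKM in shControl. Replicate 4 was the highest of the 6 libraries, and the other shNpc1 libraries were the lowest. With all libraries the log2 fold change was -0.14 (95% interval -0.40 to 0.12, limma adjusted p = 0.381). Without shNpc1 replicate 4 it was -0.26 (adjusted p = 0.0143), and after the GC correction -0.27 (adjusted p = 0.0236), within a range of 0.0143 to 0.713. The ratio of Ehd4 to Ehd2 was 0.751, 0.943 and 0.866 in shNpc1 and 1.19, 1.17 and 1.17 in shControl, so that Ehd4 was below Ehd2 in the 3 shNpc1 libraries and above it in the 3 shControl libraries.

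Pacsin2 (gene 23970), an F-BAR protein gene whose product bends the caveolar neck, was at 50.8, 57.8 and 55.9 FPKM in shNpc1 and at 64.1, 58.4 and 61.0 FPKM in shControl. The groups were separate by less than 1 FPKM. Its log2 fold change was -0.16 (95% interval -0.33 to 0.01, limma adjusted p = 0.174), and it passed under none of the 17 alternatives, where adjusted p ran from 0.0586 to 0.449. Plvap (gene 84094) encodes the protein of the diaphragms that span caveolae and fenestrae, and brain endothelium loses it as the barrier matures. It was at 230.1, 196 and 205 FPKM in shNpc1 and at 206, 217 and 212 FPKM in shControl, with overlapping groups and a log2 fold change of -0.01 (95% interval -0.19 to 0.17, limma adjusted p = 0.930). After the GC correction it passed as lower (log2 -0.20, adjusted p = 0.0164), within a range of 0.0164 to 0.962 over the 17 alternatives. Plvap exceeded Cav1 in shNpc1 replicate 4 and was below it in the other 5 libraries.

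**Figure D3:**
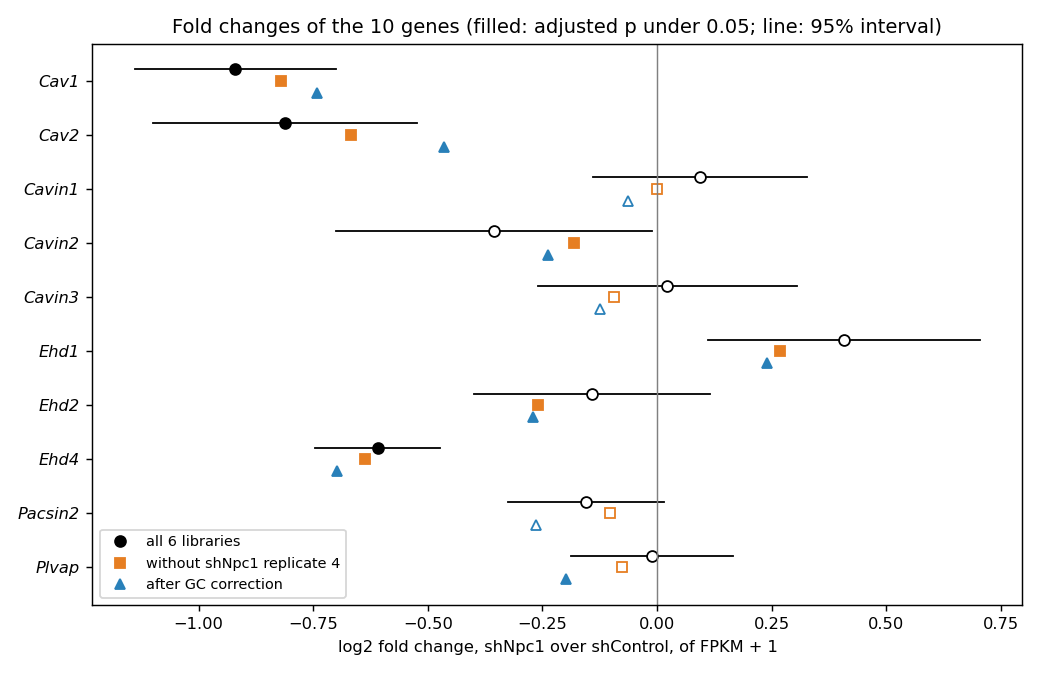
Log2 fold change of each gene on the log2(FPKM + 1) scale with all 6 libraries (circles, with 95% intervals), without shNpc1 replicate 4 (squares) and after GC correction (triangles). Filled symbols passed at an adjusted p under 0.05. Cav1, Cav2 and Ehd4 are filled in all 3 settings, while Cavin2, Ehd1 and Ehd2 are filled in the other two.

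Without shNpc1 replicate 4, 5 of the 10 genes fell (Cav1, Cav2, Ehd4, Cavin2 and Ehd2) and 1 rose (Ehd1), beside 10.1% and 18.3% of all tested genes. After the GC correction 6 fell (these and Plvap) and Ehd1 rose, beside 11.8% and 13.5% of the 10247 genes with a GC value. Cav1 lay below the median of genes in its bin of GC content (10 bins) by 0.69, 0.85 and 0.72 log2 units in shNpc1 replicates 4, 5 and 6. For Cav2 these distances were 0.46, 0.64 and 0.49, and for Ehd4 they were 0.68, 0.70 and 0.70. Ehd1 lay above its GC median by 0.35, 0.14 and 0.18. Cavin1 lay below its own by 0.02, 0.08 and 0.09 in the same libraries. The remaining genes also lay below their GC medians in all 3 shNpc1 libraries. In the same order of libraries their deviations were -0.48, -0.18 and -0.21 for Cavin2, and -0.04, -0.25 and -0.11 for Cavin3. They were -0.17, -0.37 and -0.29 for Ehd2, -0.47, -0.15 and -0.21 for Pacsin2, and -0.22, -0.19 and -0.18 for Plvap.

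**Figure D4:**
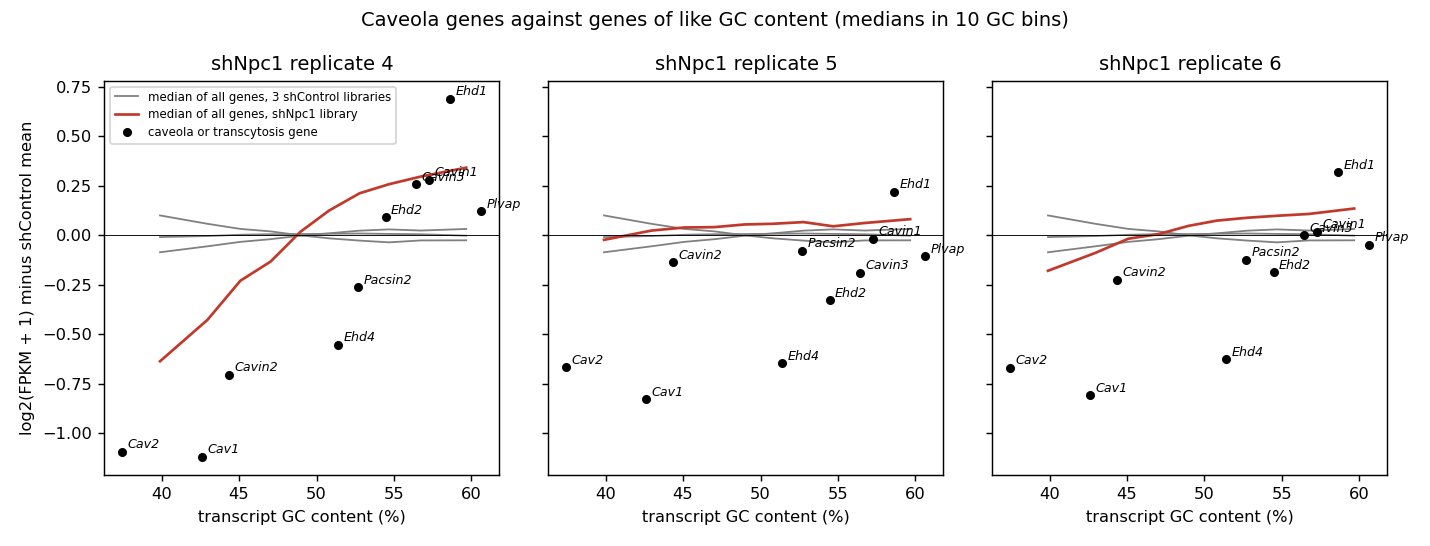
Deviation of the 10 genes (black points) from the shControl mean in each shNpc1 library, in log2(FPKM + 1), against transcript GC content. Red lines are medians of all tested genes in 10 GC bins for that library and grey lines those of the 3 shControl libraries. The red line climbs steeply in replicate 4 and little in replicate 5; Cav1, Cav2 and Ehd4 lie well below it in all 3 panels.

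In order of mean level in shControl, the genes ran Cav1, Cavin3, Plvap, Ehd4, Ehd2, Cavin1, Cav2, Ehd1, Cavin2 and Pacsin2, all within the top 16.3% of tested genes. The shControl values of Ehd2 and Cavin1 overlapped, as did those of Ehd1 and Cavin2, so these neighbours in the order were not separated. In shNpc1 the values of Cavin3, Plvap and Cav1 overlapped each other, so the top of the order was not separated. The 10 genes together held 0.180%, 0.186% and 0.187% of the summed FPKM of the shNpc1 libraries and 0.230%, 0.226% and 0.226% of that of the shControl libraries.

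The genes with the pattern nearest to that of Cav1, by Euclidean distance of mean-centred log2(FPKM + 1) over the 6 libraries, were Phf11d (0.07), Ppl (0.11), Itga6 (0.14), Ankrd13c (0.14), Dll1 (0.16) and Deptor (0.17). In the same order their ratios of mean FPKM were 0.511, 0.358, 0.540, 0.476, 0.520 and 0.433, against 0.530 for Cav1. This scale understates changes of low genes, such as Ppl, which averaged 0.90 FPKM in shNpc1 and 2.52 FPKM in shControl. Itga6, the integrin alpha 6 subunit that binds laminin, was at 24.98, 33.8 and 32.7 FPKM in shNpc1 and at 59.25, 53.4 and 56.9 FPKM in shControl. Dll1, a Notch ligand gene, averaged 4.24 ± 0.572 FPKM in shNpc1 and 8.15 ± 0.406 FPKM in shControl (SD, n = 3 each).

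Other genes of vesicle formation and transcytosis were examined in 7 lists, of which 61 genes were tested. Among them 12 rose and 3 fell, beside 12.0% and 5.89% of all tested genes, and at an unadjusted p under 0.05 these were 24 and 4, beside 21.9% and 12.8%. Their median log2 fold change was 0.13, against 0.03 over all genes tested. The counts of single lists that follow are small and stand beside the same shares. Over the 7 lists together, 3, 4 and 2 genes rose without shControl replicates 1, 2 and 3, and 4 without shNpc1 replicate 6. The count was 23 without shNpc1 replicate 4, beside 18.3% of all tested genes. Leaving out 1 library moved the count of all tested genes that rose from 1251 to between 309 and 1907. Over the 7 lists, 1 gene fell without shControl replicate 1 and 1 without shControl replicate 3, the last beside 160 of all tested genes. After the GC correction 6 fell, beside 11.8% of all genes with a GC value.

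Of the paralogues of the caveola genes, Pacsin3 and Ehd3 were tested. Cav3 was listed too but was not found among the deposited genes. Cavin4, the cavin of muscle, and Pacsin1, the pacsin of neurons, were at or below 0.03 FPKM in every library. Ehd3 was at 1.98 to 2.18 FPKM in shNpc1 and 2.15 to 2.52 FPKM in shControl, and Pacsin3 at 13.4 to 14.4 FPKM in shNpc1 and 12.6 to 12.9 FPKM in shControl. Of this list 0 of 2 tested genes passed in either direction in limma, 0 at an unadjusted p under 0.05 and 0 in the authors' deposited q-values.

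Among scission factors and caveolin partners, 2 of 11 rose and 0 fell, beside 12.0% and 5.89% of all tested genes; at an unadjusted p under 0.05 these were 4 and 0, beside 21.9% and 12.8%, and by the authors' deposited q-values 2 and 0. Dnm3, a dynamin that pinches off vesicles, averaged 7.35 ± 0.365 FPKM in shNpc1 and 4.23 ± 0.433 FPKM in shControl (SD, n = 3 each), a ratio of 1.74 (log2 0.68, limma adjusted p = 0.00457), and it passed under all 17 alternatives. Ptpn1, a phosphatase gene, had a ratio of 1.38 (adjusted p = 0.0191); its adjusted p was 0.0918, 0.0633 and 0.0888 without shControl replicates 1, 2 and 3 and 0.0639 without shNpc1 replicate 6, within a range of 0.00331 to 0.0918. Dnm2, the dynamin present in all tissues, was at 61.8, 50.3 and 52.5 FPKM in shNpc1 and 46.95, 50.04 and 48.8 FPKM in shControl, and did not pass (limma adjusted p = 0.220). Flna, the filamin that ties caveolin-1 to actin, stood at 1.21 times its shControl mean (limma adjusted p = 0.0586); it passed with TPM, quantiles and without shNpc1 replicate 4 or 5, within a range of 0.0122 to 0.197. The kinase gene Src, whose product phosphorylates caveolin-1, had a ratio of 1.10 (adjusted p = 0.232).

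The flotillins mark membrane domains distinct from caveolae. Flot1 was at 34.2, 26.0 and 30.8 FPKM in shNpc1 and 24.0, 23.8 and 23.6 FPKM in shControl, and Flot2 at 32.4, 25.2 and 26.0 FPKM in shNpc1 and 20.4, 22.2 and 22.6 FPKM in shControl. Both were higher in every shNpc1 library, and 0 of 2 passed in limma (adjusted p = 0.0654 and 0.0673), 2 at an unadjusted p under 0.05 and 0 in the authors' deposited q-values. Without shNpc1 replicate 4 or 5, or with TPM, both passed, within ranges of 0.0134 to 0.193 for Flot1 and 0.0253 to 0.225 for Flot2.

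Of the 20 clathrin coat and adaptor genes, 4 rose and 0 fell (median log2 0.20), beside 12.0% and 5.89% of all tested genes. At an unadjusted p under 0.05 these were 10 and 1 (Eps15), beside 21.9% and 12.8%, and by the authors' deposited q-values 2 and 1. The 4 were the adaptor gene Dab2 (ratio 1.19, adjusted p = 0.0340), the AP-2 subunit genes Ap2a1 (1.31, 0.0408) and Ap2b1 (1.24, 0.0478), and the light chain gene Cltb (1.30, 0.0490). None of the 4 passed without any one of the shControl replicates or shNpc1 replicate 6. None passed with median centring or trimmed mean of M values either. In the list, 8 rose without shNpc1 replicate 4, beside 18.3% of all tested genes, and 7 without shNpc1 replicate 5. More of all tested genes also rose without shNpc1 replicate 5 than the 12.0% with all 6 libraries. Over all alternatives adjusted p ran from 0.00402 to 0.138 for Dab2, 0.0110 to 0.159 for Ap2a1, 0.0137 to 0.177 for Ap2b1 and 0.0151 to 0.175 for Cltb. The heavy chain gene Cltc was at 86.8, 115 and 107 FPKM in shNpc1 and 109, 102 and 105 FPKM in shControl (adjusted p = 0.791).

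In vesicle fusion 3 of 11 genes rose and 0 fell, beside 12.0% and 5.89% of all tested genes; at an unadjusted p under 0.05 these were also 3 and 0, beside 21.9% and 12.8%, and by the authors' deposited q-values 2 and 0. The SNARE gene Stx3 had a ratio of 1.52 (adjusted p = 0.0194), and the SNARE-disassembly genes Napa and Nsf had ratios of 1.32 (0.0322) and 1.17 (0.0382). None of the 3 passed without shControl replicate 1, 2 or 3 or without shNpc1 replicate 6; adjusted p over all alternatives ran from 0.000343 to 0.0829, from 0.00456 to 0.131 and from 0.0153 to 0.169 for Stx3, Napa and Nsf. Snap23, a SNARE of endothelial exocytosis, was at 16.2, 27.1 and 26.4 FPKM in shNpc1 and 31.2, 26.5 and 28.0 FPKM in shControl (adjusted p = 0.269).

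Receptors of transcytosis moved both ways, with 2 of 6 tested genes higher and 1 lower, beside 12.0% and 5.89% of all tested genes. At an unadjusted p under 0.05 these were 3 and 1, beside 21.9% and 12.8%, and by the authors' deposited q-values 2 and 1. Scarb1, a lipoprotein receptor gene, averaged 48.1 ± 7.40 FPKM in shNpc1 and 27.0 ± 0.395 FPKM in shControl (SD, n = 3 each; ratio 1.78, adjusted p = 0.00506). Acvrl1, a receptor gene of the TGF-beta family, rose as well (ratio 1.53, adjusted p = 0.0101); it lost its call without shControl replicate 1 (adjusted p = 0.0576) or 3 (0.0544), within a range of 0.00199 to 0.0576. Tfrc, the transferrin receptor gene, was at 14.0, 23.8 and 21.1 FPKM in shNpc1 and 35.9, 30.8 and 33.5 FPKM in shControl (ratio 0.587, adjusted p = 0.0310); the call was lost without any one of the shControl replicates or shNpc1 replicate 6, without a filter and with TPM, within a range of 0.00102 to 0.124. Mfsd2a, which restrains caveolar vesicles in brain endothelium, was at 0, 0.03 and 0.03 FPKM in shNpc1 and was listed at 0 in the 3 shControl libraries. Cd36 and Fcgrt were below 1 FPKM in every library.

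Among genes whose products signal in caveolae, 1 of 9 tested rose and 2 fell, beside 12.0% and 5.89% of all tested genes. At an unadjusted p under 0.05 these were 2 and 2, beside 21.9% and 12.8%, and by the authors' deposited q-values 1 and 2. Tgfbr2 was at 13.4, 13.4 and 14.8 FPKM in shNpc1 and 32.3, 32.1 and 32.8 FPKM in shControl (ratio 0.428, limma adjusted p = 0.000224). Tgfbr1 was at 1.23, 3.59 and 2.87 FPKM in shNpc1 and 9.79, 7.05 and 8.45 FPKM in shControl (ratio 0.304, adjusted p = 0.0131); its call was lost without shControl replicate 1 (0.0660) or 3 (0.0634), within a range of 0.000828 to 0.0660. Adcy6, an adenylyl cyclase gene, rose to 19.3 ± 0.866 FPKM in shNpc1, against 14.1 ± 0.528 FPKM in shControl (SD, n = 3 each; adjusted p = 0.00791, lost at 0.0544 without shControl replicate 3, range 0.00123 to 0.0544). Nos3, the endothelial nitric oxide synthase that caveolin-1 binds and holds inactive, was at 258, 203 and 215 FPKM in shNpc1 and 219.96, 234 and 223 FPKM in shControl. Its groups overlapped, with a log2 fold change of -0.01 (adjusted p = 0.955).

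**Figure D5:**
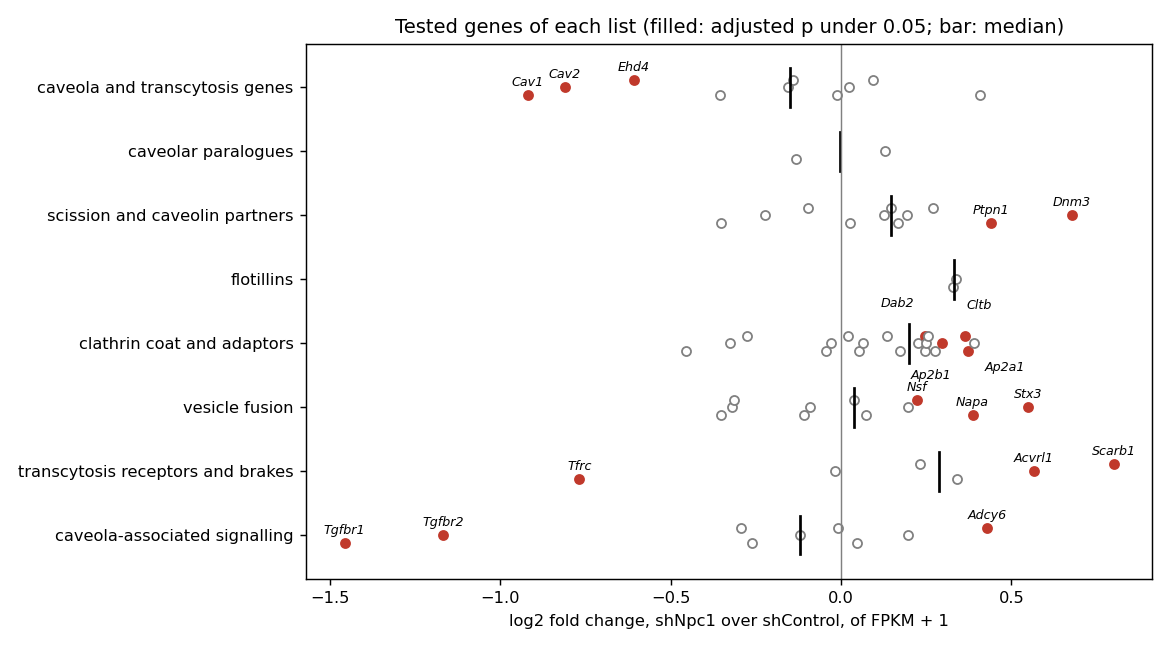
Log2 fold changes of the tested genes in the caveola and transcytosis group and the 7 related lists. Points are genes, filled where the adjusted p was under 0.05, and bars are list medians. Of the caveola and transcytosis genes 3 fell and 0 rose, and of the related lists 3 fell and 12 rose.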

How the data were processed

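Libraries were made from oligo(dT)-selected mRNA and sequenced as DNA nanoballs, per the labels' protocols. The authors deposited 1 table of FPKM values, rounded to 2 decimals, for 3 shNpc1 and 3 shControl samples. Its header also names the authors' log2 ratio, p-value and q-value. The sources used here do not give aligner, counting program, annotation, genome build, strandedness or the authors' test, so reads of overlapping genes cannot be told apart. Whole reads were not recovered from the FPKM values, and depth is unknown.

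Genes averaging 1 FPKM or more were analysed as log2(FPKM + 1), a scale that understates changes of low genes, with limma 3.58.1 in R 4.3.3 (empirical Bayes with intensity trend, two-sided). Ratios within a library were tested by exact permutation (scipy 1.17.1). The fit was also run on simulated data, with independent noise for each gene and no trend with GC content. That run does not bear on the calls in the real libraries. GC content was that of each gene's longest coding transcript in GENCODE, matched for 98.5% of tested genes; the correction subtracted from each library a spline with 5 degrees of freedom. Alternatives were 3 pseudocounts in all, 3 filters, 5 scalings, 3 variance models, the GC correction and leaving out each library. Genes named are Npc1, the 10 genes, those with the smallest p or past the threshold in each list, some list members chosen after their values were seen, and the 6 nearest to Cav1. The genes and lists were chosen with earlier results of these data known. The list of transcytosis receptors is given without 1 gene, which is not reported here. Every numbered column of the table was matched to a sample.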

Additional observations from a re-analysis of the deposited data

How the results depend on the processing

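No paired analysis was possible because the groups share no replicate number. Cav1, Cav2 and Ehd4 kept direction and call under all 17 alternatives. Of the 10 genes, 6 fell and 1 rose after the GC correction and 1 rose with TPM; leaving out 1 library gave 3 to 5 that fell and 0 to 1 that rose. Over all genes with a GC value, 1210 (11.8%) fell and 1379 (13.5%) rose after the GC correction. With TPM, more of all tested genes rose than the 12.0% of the unaltered fit. Over all tested genes, leaving out 1 library gave 160 to 1082 that fell and 309 to 1907 that rose. In the related lists, 6 rose after centring on the median, 6 after scaling by trimmed mean of M values, and 6 fell after the GC correction. Fewer of all tested genes also rose under these scalings than the 12.0% of the unaltered fit. The 6 that fell, of 61 list genes tested, stand beside the 11.8% of all genes. In these lists, leaving out 1 library gave 2 to 23 that rose and 1 to 4 that fell. Signs turned, with no call, for Cavin1 (log2 -0.0625) and Pacsin3 (-0.0431) after the GC correction, and for Cavin3 after median centring (-0.00201), trimmed means (-0.0151), quantile normalization (-0.0243) and the GC correction (-0.125). Leaving out 1 library gave -0.0947 to 0.129 for Cavin3, negative without shControl replicate 1 or shNpc1 replicate 4, and -0.0766 to 0.0371 for Plvap, positive without shControl replicate 2 or shNpc1 replicate 5 or 6. The cause of these moves was not tested. The 8 ratios kept their direction with a pseudocount of 0.1 and with each library left out. They were not recomputed under the other alternatives. The depth being unknown, no limit from depth can be given.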
